A study of Mus musculus with 5 samples.

Results

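The mitochondrial ribosomal protein genes were described in C2C12, an established mouse cell line of myoblasts, from which skeletal muscle fibres form. Members were the rows of the expression table whose gene symbol starts with Mrpl or Mrps followed by a number, which gave 78 of 12615 listed genes, 49 named for the large subunit (Mrpl) and 29 for the small subunit (Mrps). The 3 controls, called control 1, 2 and 3 after the numbers in their titles, received an empty pCMVmiR vector, and the 2 other samples are labelled miR-16 knockdown. All 5 were transfected with 1 µg of plasmid for 5 hours. The treatment protocol names a plasmid for miR-16-1 and does not say that it lowers the miRNA, unlike the genotype label. The mature miRNA was not analysed here, and the groups are called by their label. The labels do not say whether the samples of 1 group were grown as separate cultures, so each p-value reflects the spread of these samples only, and that spread may be technical.

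Mitochondria keep their own ribosomes, which translate the few inner-membrane proteins that mitochondrial DNA encodes, all of them parts of the respiratory chain and the ATP synthase. The RNA of the mitoribosome is made inside the organelle, but its proteins are encoded in the nucleus, made in the cytosol and imported. Some have counterparts in bacterial ribosomes and others are found only in mitochondria. In muscle, mitochondrial translation supplies the oxidative capacity that grows as myoblasts form fibres.

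The value of a gene is a normalized signal, in which most low values were whole reads scaled by 1 factor in each sample. The estimated depth was 15.2 to 20.1 M reads per sample, and all 10 pairs of samples were further apart than counting noise. The column names place controls 1 and 3 on 1 flow cell, called A here, and control 2 with both knockdown samples on another, called B. The myoblast markers Myod1, Myf5, Des and Cdh15 were present, with a summed signal of 5486 to 5927 per sample, while Cav3 was not listed. Of the marker lists of other cell types, 1 gene each was listed, at no more than 59.3 except for Tubb3 at 674 to 949. All 78 members passed the filter of a mean signal of 10 that left 11990 genes for testing. Their genes lie on 17 chromosomes, and the signal gave 32 to 3072 estimated reads per member and sample.

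The sequences that the group label concerns are shown first. Mature miR-16-5p, from RefSeq on build GRCm38.p6, is encoded by Mir16-2 on chromosome 3 and Mir16-1 on chromosome 14. Capitals mark its seed, bases 2 to 8, which pairs with sites in 3' UTRs.
miR-16-5p: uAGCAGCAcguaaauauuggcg
The 3' UTRs of 14 of the 78 members held a match to the seed, against 27.3% of tested genes with a 3' UTR, or 17.9% of members. The members' 3' UTRs had a median length of 327 nt and those of tested genes 1069.5 nt. Of the 21 matches, 3 were 8mers (the seed match followed by an A), 15 were 7mers without that A and 3 were 7mers that lack the last seed base but keep the A. The 3 8mer sites, with the match in capitals, were in a large-subunit gene and a pair of small-subunit genes.
Mrpl3: gtggcatgtgtTGCTGCTAcctactgagct
Mrps25: tactgttaggtTGCTGCTAagacaatagcc
Mrps6: ggcactatgggTGCTGCTAggttgttgtct
Members with a site had a median log2 difference between knockdown and empty vector of 0.13 and the 64 without one 0.12. A match is a description of letters, not evidence of binding.

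Promoter sequences, 300 bases that span the annotated start and lie mostly before it, were found in RefSeq for 69 members, with 75 promoters in all. They were searched on both strands for letters of 3 factors known to act on nuclear genes of mitochondria: GCGCNTGCG for NRF1, CCGGAAG for the ETS family that includes GABPA, and AAGATGGC for YY1. The ETS and YY1 letters can overlap by the 3 bases AAG. The NRF1 letters were in 24% of member promoters, 13.6% of promoters of tested genes and 6.31% of all promoters. The ETS letters were in 34.7%, 17.9% and 8.86%, and the YY1 letters in 16%, 4.51% and 2.75%. The stretches below show matches in capitals, 1 each for NRF1 and ETS and 2 for YY1, at genes described further on.
Mrpl12 (NRF1 letters, plus strand, chr11:120484531-120484590): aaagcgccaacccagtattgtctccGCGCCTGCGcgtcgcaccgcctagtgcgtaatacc
Mrpl27 (ETS letters, plus strand, chr11:94653711-94653770): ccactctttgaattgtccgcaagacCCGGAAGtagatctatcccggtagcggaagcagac
Mrps24 (YY1 letters, minus strand, chr11:5707652-5707711): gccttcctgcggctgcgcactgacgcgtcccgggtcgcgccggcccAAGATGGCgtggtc
Mrps11 (YY1 letters, plus strand, chr7:78782999-78783058): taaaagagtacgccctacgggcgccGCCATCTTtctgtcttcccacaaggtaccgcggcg
The coordinates are those of GRCm38.p6. Members with the NRF1 letters had a median log2 difference of 0.12 and those without 0.12. With and without the ETS letters the medians were 0.14 and 0.11, and with and without the YY1 letters 0.13 and 0.11. Mrps11 and Mrpl46, a small and a large subunit gene, lie head to head on chromosome 7 with starts 41 bp apart. Mrps11 read 277.7, 314.03 and 260.3 in controls 1, 2 and 3 and 307.3 and 319.9 in knockdown samples 1 and 2. Mrpl46 read 254.2, 331.1 and 276.4, then 304.1 and 312.4. Of all members, 28.2% (22 genes) were head to head with another listed gene within 500 bp, against 12% of listed genes.

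The levels of the members spread over a wide range. Per kb of the principal transcript, Mrps6, the counterpart of a bacterial small-subunit protein, was highest with 2314 ± 131 (SD, n = 5). It overlaps Slc5a3 on the same strand, and the part of shared reads in its level was not tested. It was followed by Mrpl52, a protein found only in mitochondria, with 1778 ± 216, and Mrpl12, the stalk protein that recruits translation factors, with 1709 ± 171. The last pair did not differ beyond their spread. Mrpl20, an early binder of the large-subunit RNA in bacteria, stood at 1346 ± 173, and Mrpl33 at 1271 ± 44.8, again within the spread. Mrps21, at 1050 ± 137, and Mrps18b, at 886 ± 16.2, came next among the small-subunit genes. At the low end were Mrpl57 at 75.3, Mrpl47, a protein near the exit of the nascent-chain tunnel, at 62.8, and Mrpl48 at 28.9. The lowest small-subunit genes were Mrps14 at 94.6, Mrps35 at 89.8 and Mrps5 at 82.3. Annotated transcripts of some low members have long 3' UTRs, so the order was also taken per kb of coding sequence. Mrps6, Mrpl12 and Mrpl33 then led, and Mrpl48 and Mrpl23 were the lowest.

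**Figure D1:**
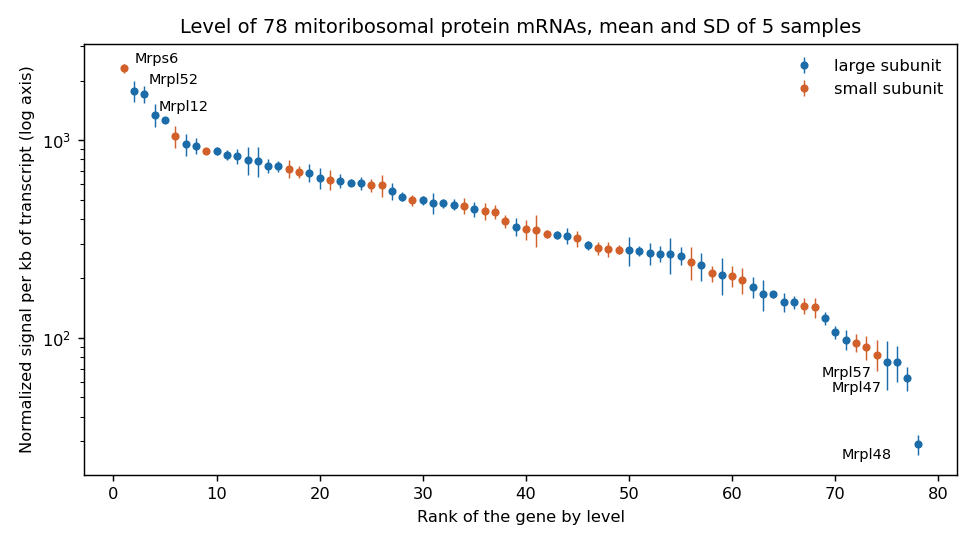
Normalized signal per kb of transcript for the 78 members in order of level (log axis), with the mean and SD of 5 samples, in blue for the large and orange for the small subunit. Levels run from 28.9 for Mrpl48 to 1778 for Mrpl52 in the large subunit and from 82.3 for Mrps5 to 2314 for Mrps6 in the small one.

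The mean level of the large-subunit genes was slightly above that of the small-subunit genes. The mean log2 level per kb of the large subunit exceeded that of the small one in each of the 5 samples, by 0.04, 0.09 and 0.05 in controls 1, 2 and 3 and by 0.09 and 0.08 in the knockdown samples, a mean of 0.07 ± 0.02 (SD, n = 5). The control values enclose both knockdown values, so this difference did not separate the groups. Mrps30 and Mrps18a carry small-subunit symbols but sit in the large subunit in the structure, and moving them raised the difference to 0.11 ± 0.02. Without division by length, the difference was 0.03 ± 0.02 and was below 0 in control 1. The size of the difference therefore depended on how length and subunit were assigned. These SDs are over samples of the same genes and do not measure the spread between genes. That spread was wide, with lower and upper quartiles per kb of 209 and 741 in the large subunit and 212 and 591 in the small. Whether the subunits differ beyond it was not tested.

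The spread between replicates was larger than counting error in most members. The median within-group SD of a member was 0.13 on the log2 scale, against 0.06 from counting, and 68 of 78 members exceeded their counting SD. Mrps18b was the steadiest, with 981.5, 933.2 and 950.3 in the controls against 959.6 and 957.9 in knockdown samples 1 and 2. The log2 difference came to 0.01 ± 0.09 (SE). Mrpl23, which lies close to the imprinted H19 gene on chromosome 7, was the least steady and the lowest in signal, with 34.2, 50.3 and 70.7 against 62.5 and 44.1, and its groups overlapped fully. Mrpl22 and Mrpl27 also varied widely, with control 2 close to the knockdown samples in both. Mrpl27, counterpart of a bacterial protein that reaches towards the peptidyl transferase centre, read 121.7, 180.1 and 121.1 in the controls and 183.3 and 183.0 in the knockdown samples.

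Between the groups, no member passed the limma test with Benjamini-Hochberg adjustment over all 11990 genes at a threshold of 0.05, and neither did any other gene (0.0% called). The lowest adjusted p among members was 0.565. Without control 2, 28 genes passed, 0 of them members, and the members' median was 0.19. The groups and the flow cells then split the samples in the same way, so group and flow cell cannot be told apart in that fit. At an unadjusted p under 0.05, 8 members were higher and 1 was lower in the knockdown samples, beside 2.83% and 5.3% of all tested genes. The direction was shared by most members: 70 of 78 had a log2 difference above 0, against 50.2% of tested genes, and the median was 0.12 against 0.0007 for all genes. Non-overlapping groups with the knockdown higher were seen in 23 members (11.4% of all genes) and with the knockdown lower in 1 member, Mrps35 (12.4% of all genes). Because the cells were measured in bulk, fewer cells of a kind and less RNA per cell cannot be told apart.

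Among the large-subunit genes, Mrpl13 read 967.6, 1173 and 1095 in controls 1, 2 and 3 against 1253 and 1364 in knockdown samples 1 and 2. The difference came to 0.28 ± 0.10 (SE, limma adjusted p = 0.565), and the groups did not overlap. Mrpl57, mitochondria-specific, read 153.8, 218.3 and 193.9 against 251.2 and 266.5. The difference of 0.47 ± 0.17 was the largest among the members, and again no control reached a knockdown sample. Mrpl50 read 632.2, 672.7 and 643.9 against 762.3 and 760.0, a difference of 0.23 ± 0.10. Mrpl22, whose bacterial counterpart lines the tunnel of the nascent chain, read 154.9, 209.4 and 142.5 against 234.0 and 216.7, a difference of 0.43 ± 0.19. Mrpl51 had an overlap, with control 2 at 982.7.

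Of the small-subunit genes, Mrps24, whose bacterial counterpart stands at the mRNA entry, read 499.8, 537.2 and 581.7 against 639.4 and 681.2, and its difference of 0.29 ± 0.11 held without overlap. Mrps17, an RNA-binding protein, read 697.4, 702.7 and 660.0 against 806.5 and 818.1, or 0.24 ± 0.10. Mrps35 went the other way, with 450.7, 383.0 and 386.8 in the controls and 324.5 and 324.6 in the knockdown samples, a difference of -0.32 ± 0.13. Mrps35 was the lowest of 3 small-subunit genes with a negative difference, Mrps10 (-0.07 ± 0.13) and Mrps27 being the others. Of the 5 negative values in the large subunit, Mrpl37 stood at -0.11, Mrpl45, which tethers the ribosome to the inner membrane, at -0.10, and Mrpl43 at -0.06, with overlapping groups in all 3. Mrpl1 and Mrpl38 were the others.

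**Figure D2:**
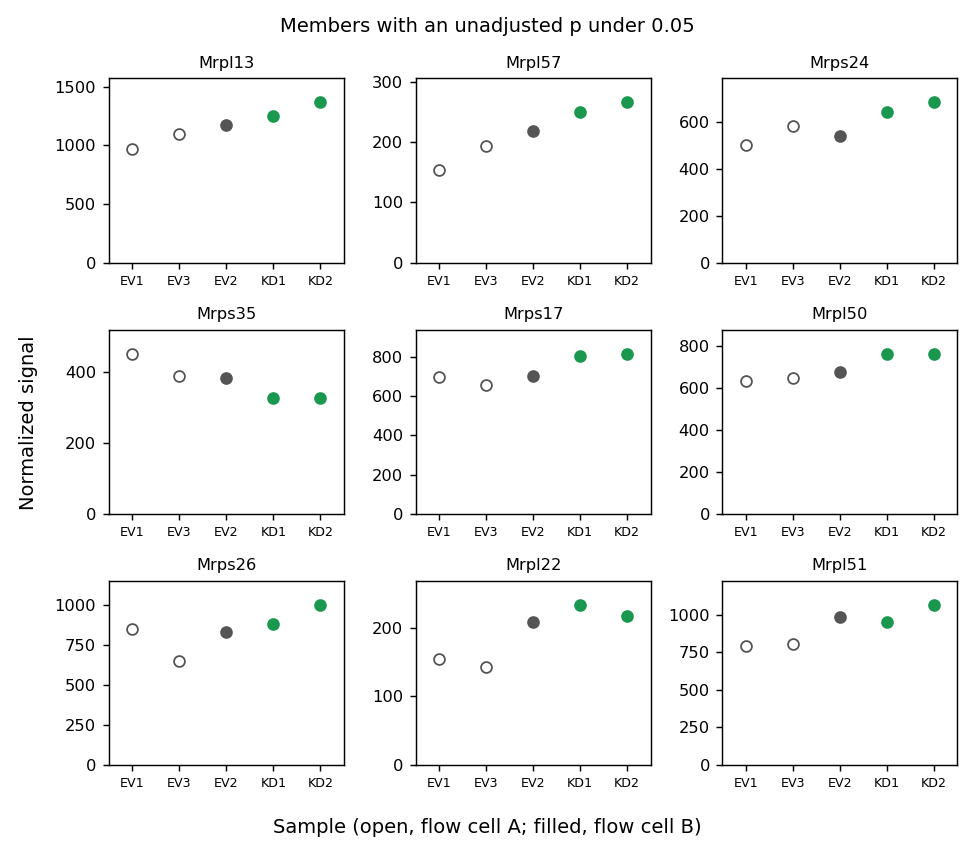
Normalized signal in each sample (EV, empty vector; KD, miR-16 knockdown) for the 9 members with an unadjusted p under 0.05, with axes from 0 and samples of flow cell A as open circles. In Mrps35 the knockdown samples are below the 3 controls, and in Mrpl13, Mrpl57, Mrps24, Mrps17, Mrpl50, Mrps26 and Mrpl22 they are above them.

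Other members with particular roles had differences from 0.01 to 0.33. Mrpl10, base of the stalk, stood at 0.06 ± 0.10 and Mrpl12 at 0.13 ± 0.10. Mrpl58, a peptidyl-tRNA hydrolase built into the large subunit, stood at 0.09 ± 0.14, Mrpl44, related to ribonuclease III, at 0.11 ± 0.12, and Mrpl40 at 0.06 ± 0.11. Mrps12, whose bacterial counterpart sits at the decoding centre, stood at 0.31 ± 0.15 and overlapped the controls. Of the 3 paralogs named Mrps18, Mrps18c, in the place of the bacterial protein, stood at 0.07 ± 0.14, Mrps18a at 0.10 ± 0.12 and Mrps18b at 0.01. Mrps30 stood at 0.04 ± 0.09. Mrps36, now described as part of the 2-oxoglutarate dehydrogenase complex, stood at 0.33 ± 0.19, with groups that overlapped. None of these passed the test.

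Members at the ends of the range of levels or of spread gave these values. Mrps6 read 1866, 1955 and 1973 in controls 1, 2 and 3 and 1859 and 2134 in the knockdown samples, so its groups overlapped. Mrpl12 read 2041, 2493 and 1979 against 2371 and 2363, with control 2 above both knockdown samples. Mrpl52 read 613.0, 820.4 and 710.3 against 835.6 and 736.5, and Mrpl20 read 880.0, 1060 and 965.3 against 1233 and 1004. In both, a control lay among the knockdown samples. Mrps21 read 422.9, 542.9 and 465.0 against 543.4 and 587.3, a difference of 0.25 ± 0.12, with control 2 just under knockdown 1. Mrps5, whose bacterial counterpart lines the mRNA path, read 278.7, 416.3 and 318.2 against 416.2 and 415.6, and control 2 was level with the knockdown samples. Mrpl33 and Mrpl19 were among the steadiest, and Mrpl19 read 824.8, 798.1 and 810.2 against 834.9 and 885.8. Mrpl48, the lowest per kb, read 121.1, 118.5 and 106.4 against 127.5 and 146.7, a difference of 0.25 ± 0.20. Mrpl47 read 168.7, 238.6 and 213.2 against 238.3 and 197.0 and Mrps14 read 276.6, 243.4 and 304.3 against 276.0 and 318.1, and both overlapped.

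The subunits were then compared for the difference between the groups. Of the 49 large-subunit genes, 44 had a positive difference with a median of 0.13, and of the 29 small-subunit genes 26, with a median of 0.11. Moved by structure, the medians were 0.11 for the 51 large-subunit genes and 0.12 for the 27 small-subunit genes, so the order of the subunits turned with the assignment. The 46 members with a bacterial counterpart had a median of 0.13 with 44 positive, and the 32 found only in mitochondria 0.11 with 26 positive. Mrps36, now described as part of another complex, was kept among the 27 and the 32.

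The values of the members in each sample did not follow the groups alone. The median deviation of a member from its own mean was -0.13 in control 1, 0.06 in control 2 and -0.08 in control 3, and 0.05 and 0.09 in knockdown samples 1 and 2. Control 2 thus stood beside the knockdown samples, with which it shares flow cell B, and apart from the other controls. Control 1 was lowest in 42 members and control 3 in 20, while knockdown 2 was highest in 33 and lowest in 0. The members' share of the total signal was 0.278%, 0.314% and 0.285% in the controls and 0.311% and 0.332% in the knockdown samples.

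**Figure D3:**
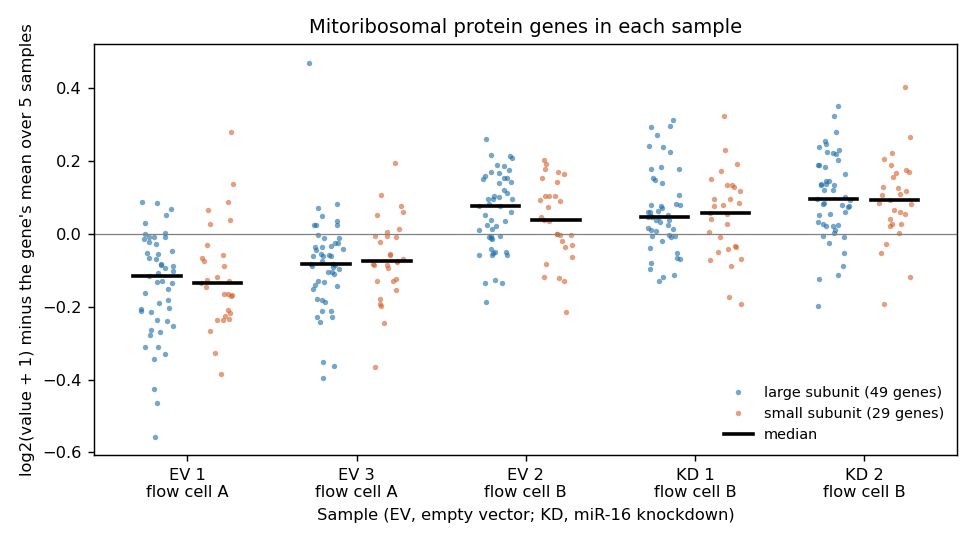
Deviation of each member's log2(value + 1) from its mean over 5 samples, with a point per gene, colour by subunit and a black line at the median, and the samples ordered by flow cell. Controls 1 and 3, on flow cell A, have medians from -0.14 to -0.08 in both subunits, and the 3 samples on flow cell B from 0.04 to 0.09.

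All 3 samples of flow cell B were above both samples of flow cell A in 39 members, beside 16.6% of all genes, and below them in 2 members, Mrps35 and Mrpl1, beside 16%. On flow cell B alone, where control 2 is the only control, 45 of 78 members were higher in the knockdown samples (47.3% of all genes) and the median difference was 0.03, with 0.04 for the large and 0.02 for the small subunit. Between controls, control 2 was above the mean of controls 1 and 3 in 62 members (50.1% of all genes), with a median of 0.17. These comparisons share control 2. A limma fit to all 5 samples was also run with flow cell as a term. Because flow cell A held controls only, its differences between the groups are those of flow cell B alone by construction. With Benjamini-Hochberg adjustment 0 genes passed in this fit. At an unadjusted p under 0.05 it held 304 of 11990 tested genes and 0 of 78 members. Few members would be expected at that share of all genes. Flow cell and any other property that splits the samples the same way cannot be told apart. Within flow cell B, the knockdown mean minus control 2 was 0.24 in Mrpl57, 0.30 in Mrps24 and 0.21 in Mrps17. It was 0.18 in Mrpl50, 0.16 in Mrpl13, 0.17 in Mrps26 and -0.24 in Mrps35. For Mrpl22 the value was 0.10, for Mrpl51 0.04 and for Mrpl27 0.02. In all of these but Mrpl51 the groups, control 2 included, did not overlap, so the direction here was fixed in advance.

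Across all tested genes with a length, transcript length moved with these differences. The members' transcripts had a median of 1302 nt against 3049 nt for all genes, and slopes of the deviation per doubling of length were 0.07 and 0.05 in controls 1 and 3, -0.02 in control 2 and -0.01 and -0.09 in knockdown samples 1 and 2. The 4044 other genes with a length between the members' quartiles had a median difference of 0.06 and were higher in 68.0%. With the length trend of each sample removed, the members' median was 0.02 and 47 were higher (50.6% of all genes). The part of length in the members' difference was not tested further. Across members, the log2 difference and log2 length had a Pearson r of -0.08, given as a description. The 26 shortest, 26 middle and 26 longest members had median differences of 0.18, 0.10 and 0.14, with 25, 22 and 23 higher. The longest had a median length of 3395.5 nt.

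**Figure D4:**
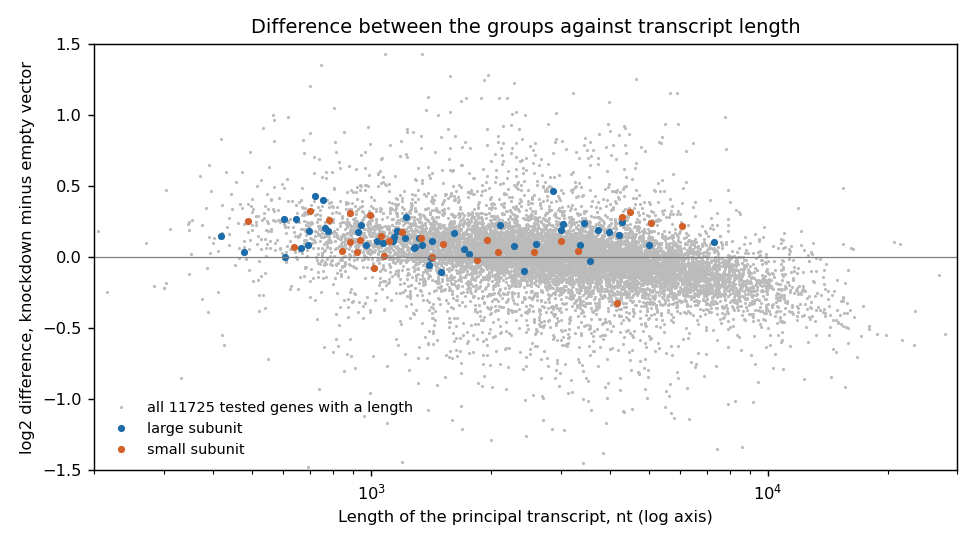
Difference between the groups (log2) against the length of the principal transcript (log axis) for the 11725 tested genes with a length in grey and the members in blue (large subunit) and orange (small subunit), with the vertical axis ending at 1.5 in either direction, beyond which 12 genes lie. Most members lie above 0 among both short and long transcripts, and the grey points also lie above 0 on balance among short ones.

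Other nuclear genes of translation and respiration were examined in the same fit. Of 80 cytosolic ribosomal protein genes, 77 had a positive difference with a median of 0.18, and of 38 genes of respiratory complex I, 37, with a median of 0.16. On flow cell B alone the medians were 0.01 and 0.03. Of 46 measured partners of mitochondrial translation, 26 were positive and 20 negative, with a median of 0.03, and 0 passed the test. The 5 mitoribosome proteins without an Mrp symbol, Dap3, Ptcd3, Aurkaip1, Chchd1 and Gadd45gip1, were all positive with a median of 0.17. On flow cell B alone their median was 0.07, and Gadd45gip1 stood at -0.01. Slirp, which stabilizes mitochondrial mRNAs, read 253.1, 423.6 and 322.5 against 476.6 and 446.6, a difference of 0.50 ± 0.18, and of 0.12 on flow cell B alone. Mrm2, a methyltransferase of the large-subunit RNA, stood at 0.44 ± 0.19, Nsun4, a methyltransferase of the small-subunit RNA, at -0.29 ± 0.14, and Lrpprc, the partner of Slirp, at -0.11 ± 0.08. On flow cell B alone these stood at 0.29, -0.26 and -0.03.

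**Figure D5:**
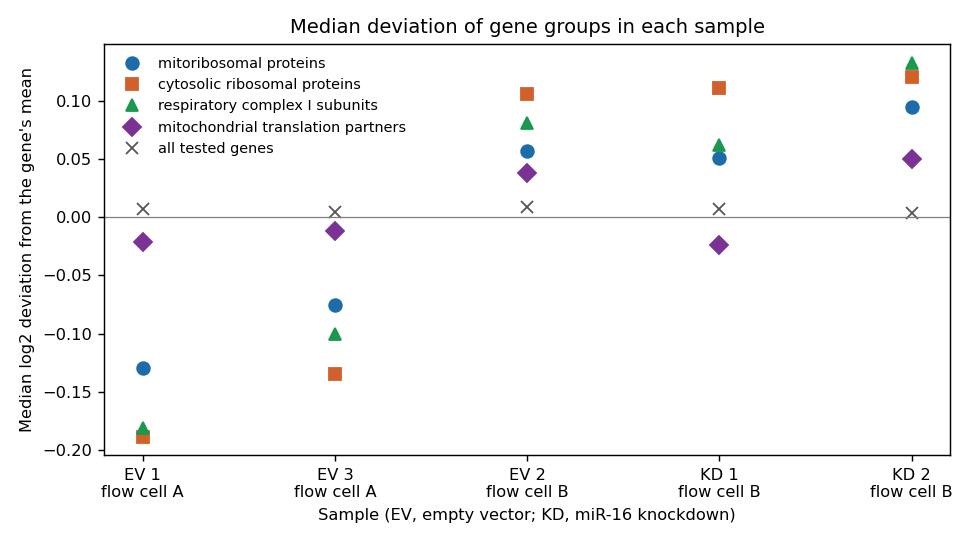
Median log2 deviation of gene groups from each gene's mean in the 5 samples. The cytosolic ribosomal proteins, complex I genes and mitoribosomal proteins are below 0 in controls 1 and 3 and above 0 in the other 3 samples, while all tested genes stay close to 0.

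In the authors' deposited table, which gives a ratio of inhibition to control, 69 of 78 members had a ratio above 1 (49.5% of its genes), with a median of 1.08. An unadjusted p under 0.05 with a ratio above 1 was given for 8 members (3.46%) and with a ratio below 1 for 1 member (6.01%) in the authors' deposited table. An adjusted p was listed for 48 members in another of the authors' deposited tables. Of these, 0 were under 0.05 (1.06% of genes with one), and the lowest was 0.144, for Mrpl13, whose ratio was 1.21. Mrps35 had a ratio of 0.799 in the authors' deposited table.

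A few members share positions with other genes, and the strand setting of the counting is not given in the sources used here. In all, 10 members overlap another listed gene, 7 of them on the opposite strand, so reads of the partners cannot be told apart there. Mrpl19, Mrpl24, Mrpl43, Mrpl48, Mrpl49, Mrps7 and Mrps25 are the opposite-strand cases. Mrps6 overlaps Slc5a3, a myo-inositol transporter gene on the same strand of chromosome 16. Slc5a3 read 2161, 2158 and 2657 in the controls and 1665 and 1707 in the knockdown samples, a difference of -0.46 ± 0.10 that did not pass the test (limma adjusted p = 0.527). Mrps6 stood at 0.04 ± 0.09. H19, near Mrpl23, read 175.1, 126.6 and 97.5 against 236.1 and 389.4. Its difference of 1.22 ± 0.26 did not pass the test either (limma adjusted p = 0.527).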

How the data were processed

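RNA was sequenced from 5 samples, and groups and replicate numbers were read from the labels. The deposited table holds a normalized signal, in which most low values were whole reads once scaled by 1 factor per sample. Between 88.4% and 89.1% of values up to 100 reads were whole within 0.02 reads, which was too few to recover whole reads, so a count model could not be fitted. Per the submitters' processing notes, STAR, Partek and DESeq2 1.34.0 were used with build mm9, with no role given for any of them. Further deposited tables by the authors hold p-values and a ratio in 1 and adjusted p-values in another, and these were copied. The treatment of reads shared with pseudogenes is not stated there.

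The scale was log2(value + 1), where changes of low genes are understated. Genes with a mean of at least 10 were tested two-sided by limma 3.58.1 (R 4.3.3), using a variance trend, robust estimation, Benjamini-Hochberg adjustment and a threshold of 0.05. The fit was run on simulated data with changes larger than the members' differences and without flow cell or length trends. That run does not bear on differences of the members' size. Lengths and 3' UTRs came from GENCODE M21, with lengths found for 97.6% of genes and all 78 members. The miRNA and promoter sequences came from RefSeq (GRCm38.p6). The coordinates of the expression table were not used beyond chromosomes. Named members are those with the smallest p per direction, the highest and lowest levels per subunit, the most and least variable, and a set with particular roles. Named partners are those with the smallest p, 2 per direction, and the 5 mitoribosome proteins. Other named genes were chosen after their values were seen. The members and lists were chosen with earlier results of these data known. Alternatives covered the pseudocount, filter, scaling, variance trend, each sample left out, the replicate number as a block, flow cell and length.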

Additional observations from a re-analysis of the deposited data

How the results depend on the processing

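The count of members past the threshold was 0 in each of the alternative fits with a test except the one with the replicate number as a block. In that fit 1 of 78 members, Mrpl13, passed (limma adjusted p = 0.039, log2 difference 0.29). It was among 311 of 11990 tested genes, so the share of members was below that of all genes. The labels do not tie the numbers to a shared culture, so pairing was not established. Same-numbered samples had deviations that correlated by 0.09 and 0.03 across genes, and control 3 with knockdown 2 by 0.06. With 2 knockdown samples, their deviations are opposite by construction, so these values cannot decide on pairing. Over the fits that left out 1 sample each, the count of all genes ran from 0 to 107. It was 107 without knockdown replicate 1 and 28 without empty vector replicate 2. The members' median stayed positive in all alternatives run. Pseudocount, filter, scaling and variance trend left it between 0.12 and 0.14. It was 0.0258 with flow cell as a term or on flow cell B alone (45 members higher) and 0.0231 with the length trend removed (47 members higher). The large and small subunit medians were 0.0363 and 0.0248 by flow cell, as a term or on B alone, and 0.0274 and 0.0176 by length, and the partner list's was -0.0226 by flow cell, either way. The large minus small difference of medians was -0.0091 with subunits by structure, and -0.0269 to 0.0272 with 1 sample left out. The partner median then ran from -0.0222 to 0.0611, lowest without knockdown replicate 2. The level difference between subunits was 0.11 by structure, 0.03 not divided by length, and 0.10 per kb of coding sequence, which was added after seeing the data, as was leaving out the members that overlap another gene. With flow cell as a term, 9 named members turned sign: Mrpl12 (-0.075), Mrpl33 (-0.042), Mrpl40 (-0.057), Mrpl47 (-0.14), Mrpl52 (-0.064), Mrpl58 (-0.11), Mrps18a (-0.11), Mrps18c (-0.10), Mrps5 (-0.0013). With the length trend removed, 9 named members turned sign: Mrpl10 (-0.0088), Mrpl23 (-0.10), Mrpl33 (-0.20), Mrpl40 (-0.041), Mrpl52 (-0.10), Mrps18a (-0.0495), Mrps18b (-0.12), Mrps18c (-0.12), Mrps6 (-0.11). With 1 sample left out, differences of 9 named members took both signs, with these ranges: Mrpl10 (-0.0895 to 0.21), Mrpl23 (-0.18 to 0.33), Mrpl47 (-0.057 to 0.22), Mrpl58 (-0.051 to 0.20), Mrps10 (-0.20 to 0.055), Mrps18b (-0.0105 to 0.026), Mrps18c (-0.0013 to 0.15), Mrps30 (-0.0073 to 0.096), Mrps6 (-0.055 to 0.14). Of 544 values of the 34 named members under 16 alternatives, 510 came from fits with a test. Of these, 480 kept direction and side of the threshold and 29 turned sign. Part of this was fixed in advance, because the filters and the variance trend leave each difference unchanged. The replicate block gave the differences of the fit without control 3, and the flow cell term those of flow cell B alone. Few fits had any gene past the threshold, so the side was seldom open to change. Of the 34 values on flow cell B alone, 9 turned sign and 18 moved by more than the replicate SD, 20 doing either. The cause of these changes was not tested. For Mrpl23, the member with the lowest signal, the counting SD was 0.21 (log2) and the within-group SD 0.47.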
